A study of Mus musculus with 4 samples.

Results

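The genes described here are the 150 whose level in the library TAK-931-2 stood furthest above that in every other library of the study. They were chosen by their measured values in these same 4 libraries. Counts were scaled to a library size of 1000000 using the column sum (counts per 1000000, CPM), and a gene was kept when it reached at least 5 CPM in TAK-931-2 and at least 1.5 times the highest CPM of Vehicle-1, Vehicle-2 and TAK-931-1. Of the 24421 genes in the tables, 10449 reached 5 CPM in TAK-931-2 and 289 met both conditions, and the 150 with the largest ratio of TAK-931-2 to the highest other library were taken as members, which left 139 out. Because the ratio chose the members, every statement on how far TAK-931-2 stood above the other libraries is a description, and no test is attached to it.

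Bulk RNA sequencing was performed on 4 tumour allografts of J558, a mouse plasmacytoma line derived from an antibody-secreting B-lineage tumour. J558 cells had been injected under the skin of the right flank of female BALB/c mice, which have an intact immune system, so that each library holds RNA of J558 cells together with that of the host's infiltrating and stromal cells. Mice received 0.5% methylcellulose (Vehicle-1 and Vehicle-2) or TAK-931 at 60 mg/kg (TAK-931-1 and TAK-931-2) by mouth once daily for 6 days, and tumours were labelled day 6. TAK-931 blocks CDC7, the kinase that fires origins of DNA replication. The study's methods give its mice in general as 4 weeks old and state no age for these 4 animals, and all 4 tumours came from the same cell line and the same strain. The labels called the samples independent and said nothing else of animals or batches. The study named its tumours vehicle-1 and TAK-931-1 as representatives for tissue staining, bulk RNA sequencing and single-cell sequencing.

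The libraries held between 16487902 and 19589339 counts, and a count of 0 would allow up to 3 counts, which is 0.153 to 0.182 CPM. The library TAK-931-1 stood apart from the other 3. Under the same rule, 3015 genes were highest in TAK-931-1, 14 in Vehicle-1 and 28 in Vehicle-2, compared with the 289 of TAK-931-2. Summed CPM of 25 monocyte and macrophage genes was 1759 and 1745 in the vehicle libraries, 20245 in TAK-931-1 and 4170.5 in TAK-931-2. For 18 plasma cell genes the sums were 17171, 17403, 6936 and 20722 CPM in the same order. These sums include Jchain, at 5037, 5646, 3039 and 8445 CPM, and the member Irf4, at 731, 760, 289 and 1737 CPM. Without Jchain and Irf4, the sum in TAK-931-2 did not exceed that of either vehicle library. For the labelled cell type, B lymphocyte, genes of the plasma cell and of the mature B cell were both present, with all 18 plasma cell genes and 11 of 20 mature B-cell genes at 5 CPM in TAK-931-2: the plasma cell surface gene Sdc1 was at 690.0, 690.2, 234 and 611 CPM, in the order Vehicle-1, Vehicle-2, TAK-931-1 and TAK-931-2 that is kept throughout, and the mature B-cell gene Cd79b at 165, 208, 71.7 and 165 CPM, whereas Pax5 had a count of 0 in all 4 libraries. In whole tumours, fewer cells of a type and less RNA per cell cannot be told apart.

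A B cell that becomes a plasma cell switches on the transcription factors IRF4, BLIMP1 and XBP1, enlarges its endoplasmic reticulum and secretes antibody, while it shuts down the transcription factor PAX5 and much of the mature B-cell surface programme, such as CD20 and CD23. NF-kappaB, which is released when receptors of the tumour necrosis factor family or the innate immune system are engaged, switches on survival genes such as BIRC3, ligands such as 4-1BBL and adhesion molecules such as MAdCAM-1. Octamer-binding factors act with their coactivator OCA-B, encoded by Pou2af1, on many promoters of the B lineage.

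Promoters of the members that lead the set or carry its B-lineage genes are shown first, so that the sequence can be set beside the values. Each window runs from 250 bases before the RefSeq start to 50 bases after it (GRCm38.p6), is written 5′ to 3′ on the gene's own strand, and has matches to the NF-kappaB motif, the octamer ATGCAAAT or the TATA box TATAAA, on either strand, in capitals. The NF-kappaB motif was GGG followed by any 2 bases and TTTCC. Positions are counted from 1 at the 5′ end of the window.
Madcam1 (chr10:79664309-79664608, plus strand): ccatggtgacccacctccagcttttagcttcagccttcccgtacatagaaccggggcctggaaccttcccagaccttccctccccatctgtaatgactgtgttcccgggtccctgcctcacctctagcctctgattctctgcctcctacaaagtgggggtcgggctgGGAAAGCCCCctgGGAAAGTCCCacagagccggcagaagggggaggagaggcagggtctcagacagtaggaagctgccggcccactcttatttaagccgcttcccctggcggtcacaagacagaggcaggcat
Pim2 (chrX:7878056-7878355, plus strand): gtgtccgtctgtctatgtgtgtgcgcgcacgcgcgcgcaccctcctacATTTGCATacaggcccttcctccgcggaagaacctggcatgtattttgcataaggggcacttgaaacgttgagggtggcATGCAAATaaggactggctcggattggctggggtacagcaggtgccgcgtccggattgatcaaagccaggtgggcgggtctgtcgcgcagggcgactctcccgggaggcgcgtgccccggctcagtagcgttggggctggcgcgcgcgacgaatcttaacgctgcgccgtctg
Irf4 (chr13:30748983-30749282, plus strand): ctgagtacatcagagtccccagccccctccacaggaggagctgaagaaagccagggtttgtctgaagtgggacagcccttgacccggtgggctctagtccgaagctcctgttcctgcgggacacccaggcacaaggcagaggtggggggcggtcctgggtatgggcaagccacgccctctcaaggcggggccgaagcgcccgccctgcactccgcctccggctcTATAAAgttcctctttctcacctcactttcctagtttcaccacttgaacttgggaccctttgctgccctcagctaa
Fcer2a (chr8:3694125-3694424, minus strand): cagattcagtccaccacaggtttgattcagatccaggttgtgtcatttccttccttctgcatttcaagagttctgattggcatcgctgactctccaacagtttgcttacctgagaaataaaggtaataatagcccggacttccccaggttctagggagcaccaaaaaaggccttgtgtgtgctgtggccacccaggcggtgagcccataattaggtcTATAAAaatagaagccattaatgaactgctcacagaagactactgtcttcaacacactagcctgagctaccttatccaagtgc

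The Madcam1 window held 2 matches to the NF-kappaB motif, at positions 168 and 181, and the Pim2 window held 2 octamers in opposite orientations, at 49 and 128. A TATA box stood at 225 in Irf4 and at 218 in Fcer2a. Among all 32851 mouse promoter windows of the same length, 1.63% held the NF-kappaB motif, 1.74% the octamer and 13.6% the TATA box, and in the 4 windows shown no match overlapped another. A promoter was matched for 114 of the 150 members (76%), fewer than the 80% needed, and a comparison of motif shares between the members and other genes is therefore void. A match in a window of this kind is a description of the letters, not a binding site.

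Across the 150 members, CPM in TAK-931-2 ran from 5.03 to 1737 with a median of 26.8. Of the members, 42 were under 10 CPM in TAK-931-2, 80 lay between 10 and 100, and 28 reached 100 or more. The ratio to the highest other library ran from 1.70 to 6.08 with a median of 1.90, and 62 members reached a ratio of 2 and 7 a ratio of 3. The highest other library was Vehicle-1 for 39 members, Vehicle-2 for 64 and TAK-931-1 for 47. The exact 95% interval given beside a ratio covers counting error only and describes the precision of a ratio that was chosen for its size. No member had a count of 0, and the lowest count of any member in any library was 6. Thus the members were genes with reads in all 4 tumours, most of them at a moderate level.

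The vehicle libraries were close to each other for the members: 134 differed by less than 1.5-fold between Vehicle-1 and Vehicle-2, with a median of 1.11-fold and a largest difference of 3.15-fold for Tm6sf2. Against the vehicle mean, TAK-931-2 stood 1.74 to 10.3 times higher (median 2.19), whereas TAK-931-1 ran from 0.12 to 3.92 times the vehicle mean (median 0.922). The level in TAK-931-2 was 1.71 to 17.0 times that in TAK-931-1 (median 2.52). The members therefore shared a high value in 1 treated tumour, while in the other treated tumour they lay on both sides of vehicle.

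**Figure D1:**
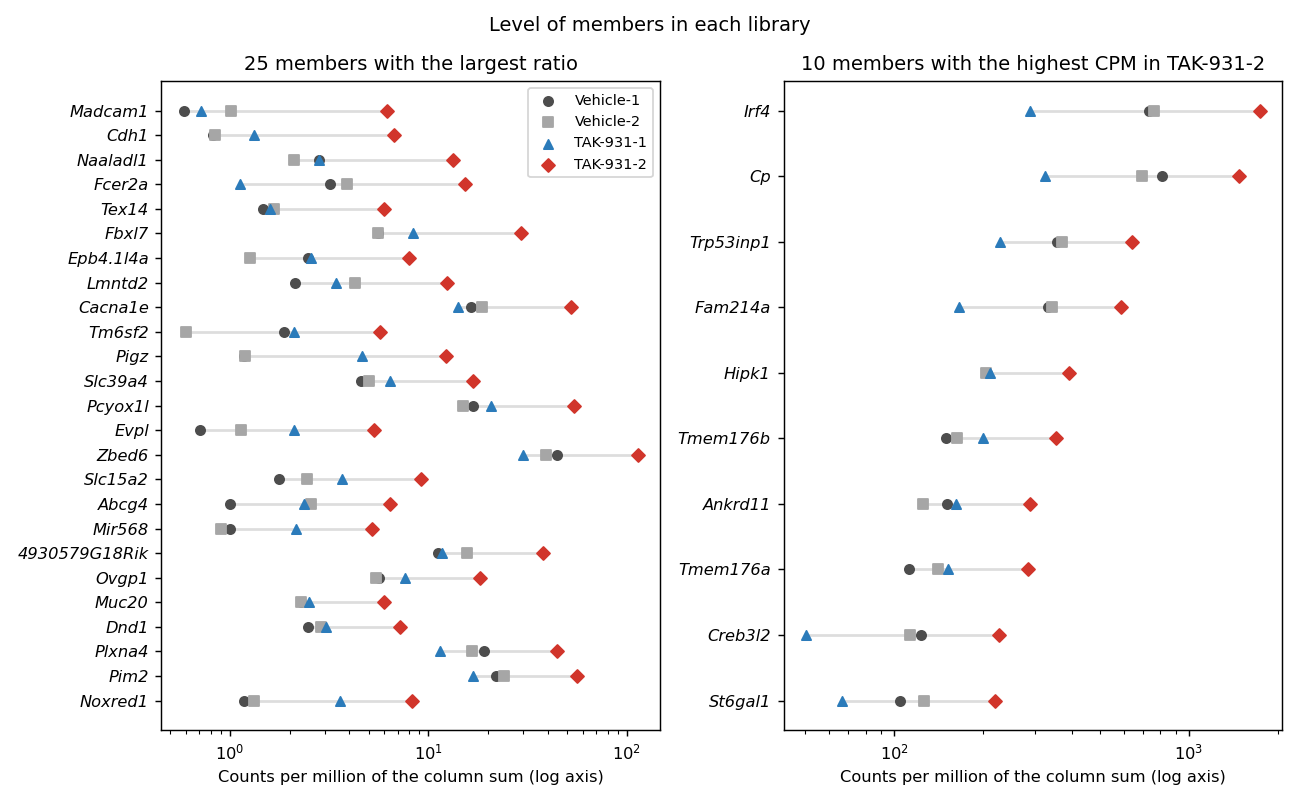
Level of the 25 members with the largest ratio (left) and of the 10 with the highest level (right) in each library, in CPM on a log axis, with 1 point per library and a grey line from the lowest to the highest. TAK-931-2 is rightmost in every row by construction, and TAK-931-1 lies left of both vehicle libraries for genes such as Irf4 and Fcer2a but between vehicle and TAK-931-2 for genes such as Pigz and Noxred1.

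The largest ratio belonged to Madcam1, which encodes a vascular adhesion molecule bound by the integrin of gut-homing lymphocytes. It was at 0.588, 1.02, 0.715 and 6.19 CPM (10, 17, 14 and 102 counts), a ratio of 6.08 with an interval of 3.62 to 10.8. Cdh1, which encodes the epithelial adhesion molecule E-cadherin, came next at 0.823, 0.837, 1.33 and 6.73 CPM (14, 14, 26 and 111 counts) and a ratio of 5.07 (3.29 to 8.10). For both genes the other 3 libraries lay near the level of 1 CPM, at 10 to 26 counts, and TAK-931-2 alone was above 100 counts. By the log2 distance between centred profiles over the 4 libraries, the members most like Madcam1 were Cdh1 (0.56), Lmntd2 (0.60) and Naaladl1 (0.66). Naaladl1, a peptidase gene, was at 2.82, 2.09, 2.81 and 13.3 CPM (ratio 4.71, 3.43 to 6.57), and Lmntd2, whose product has a lamin tail domain, was at 2.12, 4.25, 3.42 and 12.4 CPM. Pecam1, which marks endothelial cells, the usual source of Madcam1, was at 125, 126, 312 and 111 CPM and was thus highest in TAK-931-1; the source of Madcam1 RNA was not tested. Of the 26 keratinocyte and epithelial genes in the tables, 4 reached 5 CPM in TAK-931-2 and Cdh1 was the only member, with summed CPM of 283 and 361 in vehicle, 176 in TAK-931-1 and 351 in TAK-931-2.

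The mature B-cell list held the most members among the 39 gene lists used. Of the 20 genes on that list, 11 reached 5 CPM in TAK-931-2 and 4 were members, namely Fcer2a, Fcmr, Ms4a1 and Cxcr5. Fcer2a encodes CD23, the low-affinity IgE receptor, and was at 3.17, 3.89, 1.12 and 15.3 CPM (54, 65, 22 and 252 counts), a ratio of 3.93 (2.98 to 5.25). TAK-931-1 was the lowest library for Fcer2a and TAK-931-2 the highest, 1 on each side of the vehicle pair. Ms4a1 (CD20) showed the same order of libraries, at 30.3, 30.1, 12.9 and 54.8 CPM and a ratio of 1.81 (1.62 to 2.02). Fcmr, the receptor for the constant part of IgM, was at 3.29, 2.87, 4.29 and 9.83 CPM, and Cxcr5, the receptor that guides B cells to follicles, was at 1.59, 1.44, 3.62 and 6.43 CPM. For Fcmr and Cxcr5 both treated libraries lay above both vehicle libraries.

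The other 7 listed genes at 5 CPM were mixed, and each was under the ratio of 1.5. Fcrla, at 63.3, 69.7, 23.1 and 84.9 CPM, and Vpreb3, at 27.99, 33.02, 16.3 and 38.1 CPM, had the library order of Fcer2a and Ms4a1. Cd37, at 47.5, 61.1, 75.1 and 86.4 CPM, had both treated libraries above both vehicle libraries, as Fcmr and Cxcr5 did, and so did H2-Ob, which stayed under 5 CPM with 10, 2, 50 and 74 counts. The remaining 4 were not highest in TAK-931-2, with Cd22 at 1.41, 1.32, 40.4 and 11.8 CPM, Cd79b at 165, 208, 71.7 and 165 CPM, Ly6d at 52.3, 44.7, 11.2 and 37.1 CPM and Ralgps2 at 196, 189, 54.6 and 166 CPM. Listed genes under 5 CPM in TAK-931-2 were mixed as well. Spib had 24, 16, 114 and 68 counts, Ebf1 50, 54, 162 and 52 counts, Cd79a 0, 10, 30 and 10 counts and Bank1 6, 12, 20 and 18 counts, whereas Cr2 had 4, 0, 0 and 4 counts and Blk 0, 2, 4 and 6 counts. Since the 11 genes at 5 CPM were kept by their level in TAK-931-2 and 4 of them are members, nothing is read from how many were highest there. Summed CPM of the list was 598 and 651 in vehicle, 335 in TAK-931-1 and 691 in TAK-931-2. This sum includes the 4 members, and without them TAK-931-2 lay between the vehicle libraries. The source of the B-cell RNA in the tumour was not tested.

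Irf4, the transcription factor that drives plasma cell differentiation and on which myeloma cells depend, had the highest level of any member both in CPM and per kilobase of exon (371 CPM per kilobase in TAK-931-2). It was at 731, 760.3, 289 and 1737 CPM, a ratio of 2.28 with a narrow counting interval of 2.24 to 2.33. The vehicle libraries were at 746 ± 20.7 CPM (SD, n = 2), and TAK-931-1 held 0.387 and TAK-931-2 2.33 of that mean. All 18 plasma cell genes reached 5 CPM in TAK-931-2, and Irf4 was the only member among them. Xbp1 was at 1050.5, 1056, 365 and 1011 CPM and Pou2af1 at 5178, 4865, 1144 and 4157 CPM, so that TAK-931-2 did not exceed vehicle for either. Jchain, the joining chain of secreted antibody, with 4018 CPM per kilobase in TAK-931-2, was at 5037, 5646, 3039 and 8445 CPM and just under the ratio of 1.5, and Prdm1 (BLIMP1) was at 171, 166, 86.8 and 231 CPM. Over the list, the median log2 ratio to the mean of the vehicle libraries, with 0.5 CPM added, was 0.18 for TAK-931-2 and −1.53 for TAK-931-1, beside 0.01 and −0.23 over all 10449 genes. Trap1a, a tumour antigen gene that J558 cells are known to express, was at 1118, 1093, 345 and 1284 CPM.

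Several further members are known in B-lineage cells, although no list was fixed for them, and St8sia6, Sec24a and Ero1lb were singled out after their values were seen. Pim2, a kinase that promotes the survival of myeloma cells and whose promoter window held the 2 octamers, was at 21.99, 23.99, 16.8 and 55.9 CPM (ratio 2.33, 2.07 to 2.62). St6gal1, whose enzyme adds the sialic acid that CD22 binds, was at 104, 126, 66.7 and 219.8 CPM, and the sialyltransferase gene St8sia6 was at 25.5, 32.2, 9.29 and 74.4 CPM. Creb3l2, a transcription factor anchored in the endoplasmic reticulum, was at 123, 113, 50.3 and 228 CPM. Like Irf4, each of these was lowest in TAK-931-1. Sec24a, a coat protein of vesicles that leave the endoplasmic reticulum, was at 103, 112, 70.7 and 212 CPM and the oxidase Ero1lb, which serves disulphide bond formation, at 48.6, 50.6, 35.3 and 88.6 CPM, both in this order of libraries. On the plasma cell list, the folding and secretion genes Fkbp11, Creld2 and Mzb1 were not highest in TAK-931-2, with Fkbp11 at 176, 196, 51.97 and 127 CPM, Creld2 at 485, 475, 157 and 312 CPM and Mzb1 at 792, 810.0, 276 and 807 CPM, whereas Edem1 and Derl3, which serve the removal of misfolded proteins, were highest there at 909, 820.4, 408 and 1095 CPM and 169, 188, 55.8 and 198 CPM, under the ratio of 1.5. The 24 unfolded protein response genes at 5 CPM had a median log2 ratio to vehicle of 0.08 in TAK-931-2, and 0 of them were members, beside 1.44% of all genes at 5 CPM.

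In other members TAK-931-1 also lay above vehicle, and 4 of them with roles in immune signalling are given here, of which Tnfsf9, Hivep1 and Ulbp1 were on no list and were singled out after their values were seen. Tnfsf9, which encodes 4-1BBL, the ligand of a costimulatory receptor on T cells, was at 4.64, 4.19, 12.05 and 27.4 CPM (79, 70, 236 and 452 counts). Birc3, an inhibitor of apoptosis and an NF-kappaB target, was at 63.3, 63.6, 88.5 and 167 CPM, and Hivep1, a zinc finger protein that binds kappaB-like sequences, was at 29.4, 22.5, 39.2 and 66.96 CPM. Ulbp1, a ligand of the natural killer receptor NKG2D, was at 10.1, 10.8, 14.8 and 29.1 CPM. The members with an NF-kappaB motif in their promoter window did not share 1 order: TAK-931-1 lay above both vehicle libraries for Lpar2, Tmem176a and Tmem176b, between them for Madcam1 and below both for Dusp5, A630089N07Rik, Elf3 and Zbtb26. Birc3 was the only member among the 19 NF-kappaB and inflammation genes at 5 CPM; the median log2 ratio to vehicle over that list was 1.72 for TAK-931-2 and 2.65 for TAK-931-1. Only 3 of those 19 genes were highest in TAK-931-2, and the others could not meet the rule.

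The remaining members at the highest levels had varied roles. Cp, the copper-carrying ferroxidase ceruloplasmin, was at 812, 692, 325 and 1478 CPM, with a ratio of 1.82 (1.78 to 1.86), although its exons overlap those of Hps3 on the other strand. Trp53inp1, a stress gene induced by p53, was at 356, 369, 229 and 641 CPM and was the only member of the 19 p53 target genes at 5 CPM. Fam214a was at 333, 342, 166 and 587 CPM. For these 3 genes TAK-931-1 was the lowest library. Hipk1, a nuclear kinase, was at 206, 204, 212 and 390.5 CPM, so that 3 libraries were level and TAK-931-2 alone stood above them. Ankrd11, a chromatin regulator, was at 151, 125, 162 and 289.5 CPM. Tmem176a and Tmem176b, a pair of genes for related membrane proteins that start head to head with 109 bases between them, were at 112, 140.3, 152 and 285 CPM and 149, 164, 200.2 and 353 CPM. Per kilobase of exon in TAK-931-2, Tmem176a (255 CPM per kilobase) was second to Irf4, followed by Cp at 236 and Tmem176b at 172.

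Some members at lower levels encode channels, transporters or synaptic proteins, for which no list was fixed. Cacna1e, the pore subunit of the R-type calcium channel, was at 16.3, 18.5, 14.04 and 52.5 CPM (ratio 2.83, 2.48 to 3.23), and Cacna1d, the pore subunit of an L-type channel, was at 8.35, 8.37, 8.63 and 16.3 CPM. Plxna4, a receptor for semaphorins, was at 18.99, 16.6, 11.4 and 44.3 CPM. The synaptic vesicle GTPase gene Rab3a was at 12.5, 14.1, 12.3 and 28.3 CPM and its partner Rims2 at 12.99, 9.93, 7.61 and 24.5 CPM. Cacna1d, Rab3a and Rims2 were singled out after their values were seen. The Schwann cell and neuron list held no member, with summed CPM of 84.0, 88.95, 93.1 and 40.2. The 4 solute carriers were Slc39a4, a zinc importer, at 4.59, 5.02, 6.38 and 16.8 CPM, Slc15a2, a peptide transporter, at 1.76, 2.45, 3.68 and 9.22 CPM, the lactate transporter Slc16a8 at 2.12, 2.51, 0.562 and 5.70 CPM, and the sugar transporter Slc2a6 at 31.3, 31.05, 28.4 and 57.5 CPM. They made up 2.38% of the 168 Slc genes at 5 CPM, beside 1.44% of all genes.

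Among the other members with the largest ratios, Fbxl7, an F-box subunit of a ubiquitin ligase, was at 5.59, 5.56, 8.37 and 29.1 CPM with a ratio of 3.48 (2.91 to 4.18), against a vehicle level of 5.57 ± 0.0157 CPM (SD, n = 2). Pigz, which adds a mannose to the anchor of membrane proteins, showed the largest fold over the vehicle mean, 10.3, at 1.18, 1.20, 4.65 and 12.3 CPM (20, 20, 91 and 202 counts). Pcyox1l was at 16.8, 15.02, 20.7 and 53.9 CPM. Tex14, which is needed for the bridges between male germ cells, was at 1.47, 1.67, 1.58 and 5.94 CPM, and Dnd1, an RNA-binding protein of germ cells, was at 2.47, 2.87, 3.06 and 7.22 CPM. Tex14 was the only member of the 5 germline and cancer-testis genes at 5 CPM. Noxred1 was at 1.18, 1.32, 3.57 and 8.31 CPM, Ovgp1, an oviduct glycoprotein, at 5.64, 5.44, 7.66 and 18.2 CPM, and the membrane mucin Muc20 at 2.29, 2.27, 2.50 and 5.94 CPM. Evpl, a protein of the cornified envelope, Abcg4, a sterol transporter, Tm6sf2, Epb4.1l4a and Mir568 were all under 10 CPM in TAK-931-2, at 5.34, 6.43, 5.70, 8.01 and 5.22 CPM. Their values rest on few counts, and the lower bound of the ratio, with counts halved because both mates of a read pair may have been counted, was 1.48 for Evpl, 1.49 for Abcg4 and 1.41 for Mir568. The unnamed transcript 4930579G18Rik was at 11.2, 15.7, 11.7 and 37.7 CPM and overlaps exons of Acin1 on the other strand.

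The nuclear factor gene Zbed6 was at 44.5, 39.1, 29.9 and 113 CPM (ratio 2.55, 2.34 to 2.77). Zbed6 is an intronless gene that arose from a transposon, represses Igf2 and lies within Zc3h11a on the same strand. The host gene Zc3h11a was at 354, 343, 304 and 585 CPM, which met the rule but was not among the 150, so that reads of unspliced host RNA and of Zbed6 cannot be told apart. Among zinc finger genes, the 3 Zbtb members made up 9.38% of the 32 Zbtb genes at 5 CPM, beside 1.44% of all genes, with Zbtb20 at 13.8, 13.8, 10.1 and 29.3 CPM, Zbtb24 at 19.99, 24.4, 23.2 and 45.9 CPM and Zbtb26 at 15.6, 18.1, 13.5 and 31.2 CPM. The 4 Zfp members made up 1.71% of the 234 Zfp genes at 5 CPM, which is near that share, and the highest of them, Zfp142, was at 62.6, 63.9, 47.7 and 135 CPM.

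Chromatin regulators, singled out after their values were seen, included the histone acetyltransferases Crebbp at 34.2, 33.9, 33.9 and 62.05 CPM and Kat6b at 43.9, 41.9, 27.2 and 93.8 CPM, the methyltransferase Setd7 at 55.7, 58.5, 66.5 and 137 CPM and Spen, a corepressor of Notch signalling, at 79.1, 73.3, 76.1 and 163 CPM. Crebbp and Spen were level in the other 3 libraries. The DNA repair genes Brca1 and Slx4, a nuclease scaffold, were at 52.4, 48.3, 47.6 and 91.6 CPM and 48.4, 50.4, 41.8 and 94.1 CPM. The S-phase and G2/M lists held 0 members among 30 and 25 genes at 5 CPM, and with 1.44% of all genes at 5 CPM being members, lists of this size are too small to set apart from that share. Cdc7, the target of TAK-931, was at 22.8, 21.4, 20.7 and 22.1 CPM, and Mcm2, a helicase subunit that CDC7 phosphorylates, at 201, 189, 134 and 188 CPM.

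The gene lists as a whole touched few members. Of the 39 lists, 31 held no member, and 139 members were on no list. The 520 listed genes at 5 CPM included 11 members (2.12%), beside 1.44% of all genes at 5 CPM. The other 2 lists with a member were milk genes, with Csn3 (kappa-casein) at 18.1, 25.1, 15.2 and 45.00 CPM, and cholesterol and fatty acid synthesis, with 1 member. The interferon, MHC class II, T-cell, natural killer cell, macrophage, endothelial and fibroblast lists held no member, which the rule nearly fixes, since between 0 and 2 genes of each were highest in TAK-931-2 and could meet it. The lists with the largest median log2 ratio in TAK-931-2, natural killer cell (2.22) and T cell (2.00), had medians of 5.41 and 4.89 in TAK-931-1.

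How the members stood in the other treated tumour was described with edgeR's quasi-likelihood fit of Vehicle-1, Vehicle-2 and TAK-931-1, with TAK-931-2 left out. The lone treated library was assumed to vary like the vehicle pair, and the rule used these libraries by capping the highest of them. All 150 members passed the filter on low counts. Of them, 7 were higher in TAK-931-1 (beside 28.2% of the 14506 genes tested), 25 were lower (beside 29.8%) and 118 were not called at an adjusted p under 0.05. Since the cap alone holds the first count down, nothing is read from these shares, and the log2 fold changes of members in this fit are given with their SE as descriptions, with no test. By position alone, TAK-931-1 lay below both vehicle libraries for 74 members and above both for 47, beside 56.3% and 38.4% of all genes at 5 CPM in TAK-931-2, and between them for 29.

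**Figure D2:**
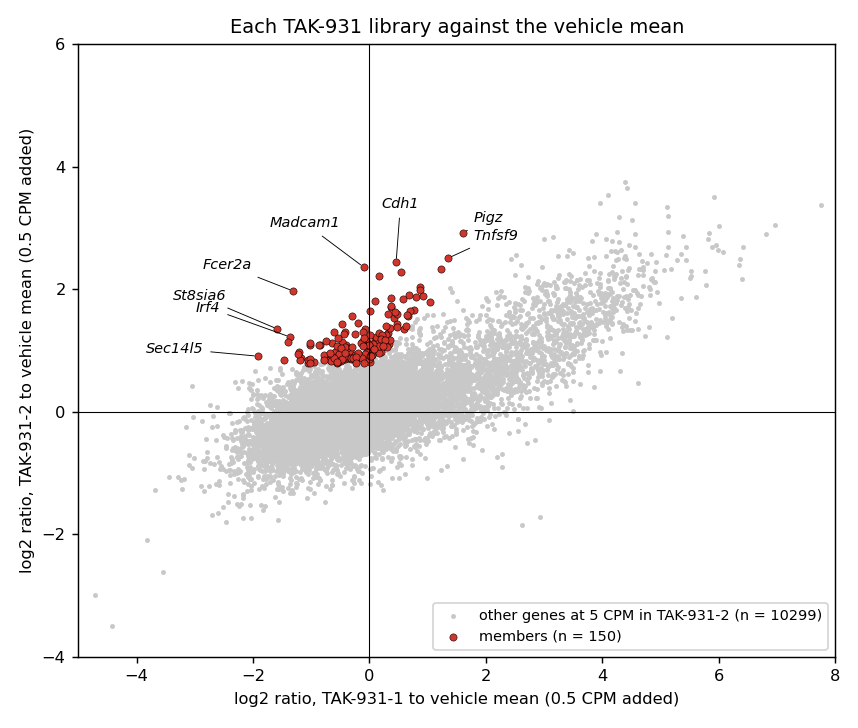
Log2 ratio of TAK-931-1 (horizontal) and of TAK-931-2 (vertical) to the mean of both vehicle libraries, with 0.5 CPM added, for 150 members (red) and the other genes at 5 CPM in TAK-931-2 (grey). Members lie high on the vertical axis by construction and spread on the horizontal axis from Sec14l5 and St8sia6 on the left to Pigz and Tnfsf9 on the right, whereas the grey cloud reaches much further right.

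The 25 members counted as lower in TAK-931-1 included Irf4, Creb3l2 and Ms4a1. The log2 fold change of TAK-931-1 against vehicle was -1.35 ± 0.08 (SE) for Irf4, -1.21 ± 0.11 for Creb3l2 and -1.21 ± 0.17 for Ms4a1. St8sia6 (-1.62), Map3k13 (-1.54), Cp (-1.20), Fam214a (-1.01), St6gal1 (-0.77), Klra17 (-0.73), Trp53inp1 (-0.65), Kat6b (-0.64) and Zbed6 (-0.47) were also among the 25, each given as a log2 fold change. The largest such value, -3.01 ± 0.87 for Sec14l5, rested on 42, 44, 6 and 86 counts. Fcer2a, at -1.63 ± 0.60, was not among the 25. Beside these values, the median log2 ratio of TAK-931-1 to the vehicle mean was -1.53 over the 18 plasma cell genes. It was 3.63 over the 22 monocyte and macrophage genes at 5 CPM in TAK-931-2 and -0.23 over all genes at that level. The part of cell composition in the members' values was not tested. Sdc1 and Xbp1, which are not members, were at 690.0, 690.2, 234 and 611 CPM and 1050.5, 1056, 365 and 1011 CPM. Both were low in TAK-931-1, as Irf4 was, and were not highest in TAK-931-2. Jchain and Prdm1, also not members, were lowest in TAK-931-1 and highest in TAK-931-2. Of the 18 plasma cell genes, 9 were highest in TAK-931-2, beside 2312 of all 10449 genes at 5 CPM.

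The 7 members counted as higher in TAK-931-1 were Pigz, Tnfsf9, Phlda1, Mlxip, Hivep1, Birc3 and Tmem176b. This count depends on the filter on low counts, since 16 members were counted when at least 10 counts were required in every library, and 5 with DESeq2. The log2 fold change of TAK-931-1 against vehicle was 1.98 ± 0.56 for Pigz and 1.46 ± 0.31 for Tnfsf9. Phlda1, a regulator of growth factor signalling, was at 31.2, 32.9, 56.2 and 118 CPM with a log2 fold change of 0.83 ± 0.12. Mlxip, which encodes the glucose-sensing factor MondoA, was at 62.97, 61.02, 101 and 194 CPM with one of 0.71 ± 0.10. Smaller log2 fold changes belonged to Hivep1 (0.61), Birc3 (0.49) and Tmem176b (0.37). For these genes the order of libraries was the same, with vehicle lowest, TAK-931-1 next and TAK-931-2 highest, the last by the rule.

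**Figure D3:**
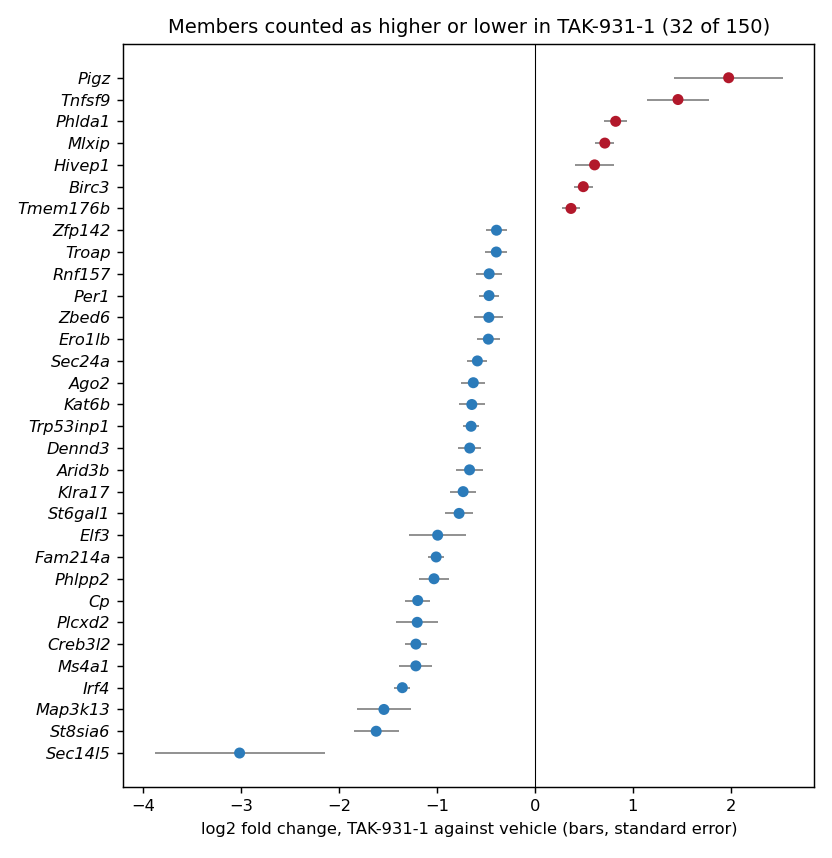
Log2 fold change of TAK-931-1 against vehicle with its standard error for the 32 members counted as higher or lower in edgeR's quasi-likelihood fit without TAK-931-2, given as a description because the rule capped these libraries. There are 7 positive values, led by Pigz, and 25 negative values, of which Sec14l5 is the largest in size and has the widest bar.

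In the comparison of both treated with both vehicle libraries, which the rule used, no gene passed edgeR's quasi-likelihood test after adjustment (0% of 13669 genes), with 2475 genes at an unadjusted p under 0.05, whereas DESeq2 called 1411 genes. Calls of members in this fit rest on the values that chose them and are not given. The 2 treated libraries differed strongly from each other, with a common biological coefficient of variation of 0.436, beside 0.134 when TAK-931-2 was left out. Fitted log2 fold changes of the members in this comparison were all positive, from 0.05 to 2.79 with a median of 0.57, a sign that the choice of members largely sets. For Irf4 the value was 0.39 ± 0.83 (SE), which averages TAK-931-1 below and TAK-931-2 above vehicle.

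The summed exon length of the members had a median of 3983 bases, compared with 2960 bases over all genes at 5 CPM in TAK-931-2. When those genes were divided into 5 classes of equal size by exon length, the longest class held 34% of the members and the shortest 14%. Over all genes at 5 CPM in every library, the median log2 ratio of TAK-931-2 to vehicle climbed from −0.22 in the shortest class to 0.24 in the longest, that of TAK-931-1 from −0.43 to −0.02, and that of Vehicle-1 to Vehicle-2 stayed between −0.02 and 0.02. Length thus moved with the difference between treated and vehicle libraries in genes at large, and its part in the members' values was not tested. With CPM corrected for this trend, a setting chosen after seeing the data, 211 genes met the rule and 136 of the 150 members were among them. The median GC content of the longest transcript was 51.8% for members and 49.7% for all genes at 5 CPM.

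**Figure D4:**
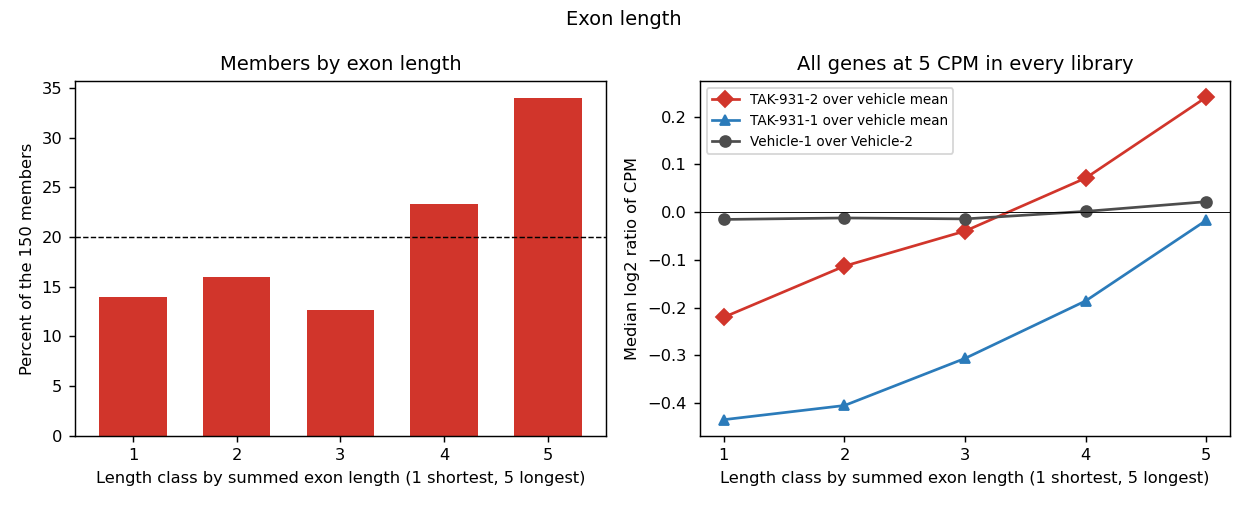
Share of the 150 members in each of 5 length classes of genes at 5 CPM in TAK-931-2, by summed exon length, with a dashed line at an equal share (left), and the median log2 ratio of CPM in each class for 3 pairs of libraries over genes at 5 CPM in every library (right). The longest class holds 34% of the members, and the lines of both treated libraries climb with length while that of the vehicle pair stays flat.

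Of the 149 members with a RefSeq biotype, 137 were protein-coding (91.9%, beside 98.4% of genes at 5 CPM) and 9 were long non-coding RNAs (6.04% beside 1.10%). Members lay on all autosomes and on chromosome X. Chromosome 16 held 15 members, 10% of the set beside 3.41% of all genes at 5 CPM, and chromosome 15 held 12, 8% beside 4.09%, whereas chromosome 7 held 2, 1.33% beside 7.19%. Chromosome 16 as a whole was not raised in TAK-931-2: over its 317 genes at 5 CPM in every library, the median log2 ratio to vehicle was −0.09 for TAK-931-2 and −0.66 for TAK-931-1. Named members on chromosome 16 included Pigz, Muc20, Slc15a2, Zbtb20, St6gal1, Slx4, Crebbp, Map3k13 and Sec14l5. These shares are descriptions of a small set and were not tested.

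**Figure D5:**
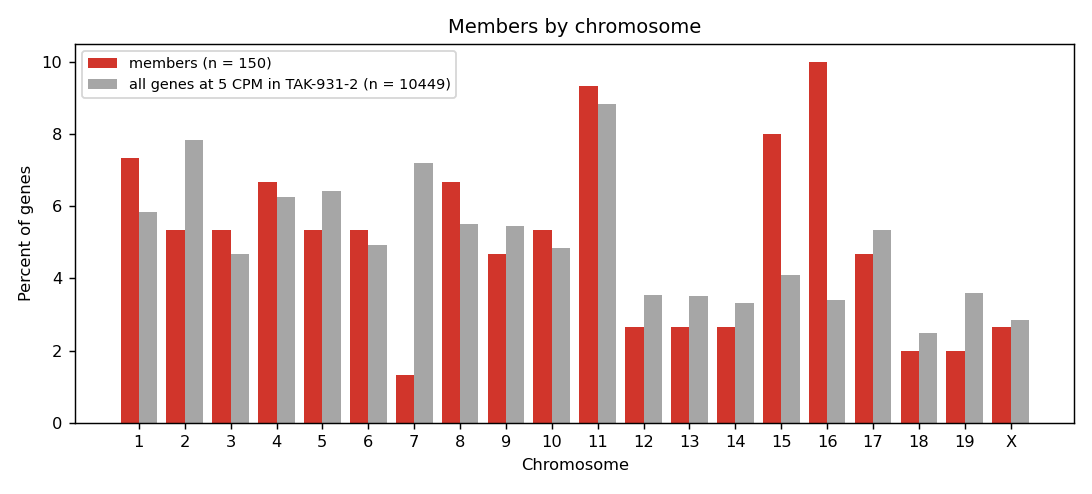
Percent of the 150 members (red) and of all genes at 5 CPM in TAK-931-2 (grey) on each chromosome. The red bar exceeds the grey most on chromosome 16 (10% beside 3.41%) and falls short of it most on chromosome 7 (1.33% beside 7.19%). Before the limit of 150, 19 of the 289 genes past the rule lay on chromosome 16 and 12 on chromosome 7.

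Members with another member within 1 Mb numbered 48 (32%), in 26 pairs of neighbours, and 24.4% of the other genes at 5 CPM had a member at that distance. Besides Tmem176a and Tmem176b (chr6:48833811-48841374 and chr6:48841483-48845364, mm10), these included Slx4 and Crebbp on chromosome 16, Pigz and Muc20 on the same chromosome, Crb3 and Tnfsf9 on chromosome 17, and the chain of Cntnap1, Wnk4 and Brca1 on chromosome 11. The neighbours did not always move alike in TAK-931-1: Crb3 was at 2.70, 3.29, 1.43 and 6.91 CPM and Tnfsf9 at 4.64, 4.19, 12.05 and 27.4 CPM. Exons of 21 members (14%, beside 13.4% of all genes at 5 CPM) overlap those of another gene, 19 of them on the opposite strand and 2 on the same strand. Strand use in counting was not given in the sources used here, so reads of such pairs cannot be told apart. Among members named in this report, the pairs were Cp with Hps3, Spen with Zbtb17, Lmntd2 with Lrrc56, Dnd1 with Wdr55 and Muc20 with Muc4. Further ones were Cacna1d with Chdh, Rab3a with Mpv17l2, Zfp142 with Plcd4, C77080 with Yars and 4930579G18Rik with Acin1. The small nucleolar RNA gene Snora81, at 5.34 CPM in TAK-931-2, lies within Eif4a2 on the same strand.

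At the edge of the set, the members with the smallest ratios were C77080 (1.71), Phlpp2 (1.70), a phosphatase of AKT, and the transcript E330020D12Rik (1.70). Just outside were Fam117a (1.69), Rffl (1.69) and Prdm15 (1.69), which met the rule but not the limit of 150. Phlpp2 was at 51.9, 45.6, 23.6 and 88.4 CPM and Rffl at 48.04, 50.4, 25.3 and 85.3 CPM, so that the line between members and the 139 genes left out separates values that counting error does not.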

How the data were processed

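RNA of 4 J558 allograft tumours was sequenced, 2 from vehicle-treated and 2 from TAK-931-treated mice. The authors deposited 1 table of read counts per gene for each library, with no normalization. The submitters' processing notes name STAR 2.6.1c, featureCounts and mm10; the strand setting and the filter on reads were not given in the sources used here. A further column that the authors deposited gives gene length as the sum of exon bases. Odd numbers made up 17.9% to 23.9% of the small counts (1 to 20), so both mates of a pair appear to have been counted, and intervals, which cover counting error only, are too narrow as printed.

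From these tables, CPM were computed on the column sum (Python 3.11.15, pandas 2.3.3), and the rule given in the report was applied. Intervals of a ratio are exact conditional binomial (Clopper-Pearson) 95% intervals against the highest other library. Tests used edgeR 4.0.16 (R 4.3.3) with TMM scaling, filterByExpr at a minimum count of 10, a robust quasi-likelihood fit with a single treatment term, two-sided p-values and Benjamini-Hochberg adjustment over all genes tested at 0.05. DESeq2 1.42.0 was the alternative. The fits were tested before use on simulated data in which all libraries varied alike. The strong difference between the 2 treated tumours was not simulated. The smallest p that an exact test of 2 libraries against 2 allows is 0.333. Samples were grouped by their titles. In the comparison of 2 libraries against 2, p-values measure the spread between these samples. Where 1 library stood alone in its group, the spread came from the other pair alone.

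Members and gene lists were chosen with earlier results of these data known, and lists are described by counts and medians without a test. Genes named are the 25 members with the largest ratio, the 10 with the highest CPM, up to 4 per list, families of at least 3 and neighbours where described, the 3 on each side of the limit and the control genes Jchain, Trap1a, Cdc7 and Mcm2; others were singled out after their values were seen. GC content came from GENCODE M21 transcripts, and promoters and biotypes from RefSeq GRCm38.p6, matched by symbol and position. Alternatives changed the scaling, the CPM minimum, the ratio, the libraries and the test, and a length-adjusted CPM (lowess) was added after seeing the data. Some genes are not reported here.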

Additional observations from a re-analysis of the deposited data

How the results depend on the processing

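The count of 289 genes past the rule moved to 531 with a CPM minimum of 1, 62 with a ratio of 2, 133 with the lower 95% bound of the ratio past 1.5 and 94 with that bound on halved counts. Leaving out 1 of the other 3 libraries at a time gave 363 to 1553 genes; the highest came without TAK-931-1, which removes the cap by that library. The members stay among the genes by construction there. TMM scaling gave 213 genes with 149 members among them, median-of-ratios size factors 236 with 149, a CPM minimum of 10 gave 231 with 108, and the column sum without Jchain gave 295 with 150. The length-adjusted rule, chosen after seeing the data, gave 211 with 136.

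The comparison of both treated with both vehicle libraries called 0 genes with edgeR and 1411 with DESeq2. With a replicate block it called 144. The deviations of same-numbered libraries correlated at 0.0197 over 13669 genes, but 2 pairs cannot show whether such libraries shared a batch. The labels stated no pairing. Leaving out 1 library gave 0 to 8424 calls, with 3996 without TAK-931-1 and 8424 without TAK-931-2; each such lone library was assumed to vary like the pair. In the fit of TAK-931-1 against vehicle, 32 members were called by edgeR and 20 by DESeq2 (5 higher, 15 lower), and 38 with at least 10 counts in every library, where 16 rather than 7 were higher. The cause was not tested. The other results stayed within 1.5 times their value under every alternative run. Among them, the count of listed genes was 11 for the members and 11 for all 289 genes past the rule, so it did not grow with the set. Each treated tumour is 1 library, so no value of TAK-931-2 has a replicate of its own, and genes at 5 CPM rest on about 83 counts.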
